A study of Homo sapiens with 6 samples.

Results

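The genes of the oxidative phosphorylation subunits were compared between HepG2-hCAR cells given doxycycline and the same cells given vehicle. They were chosen by symbol, as the MT genes, the numbered NDUFA, NDUFB, NDUFC, NDUFS and NDUFV genes, SDHA to SDHD, the UQCR genes, CYC1, the COX4 to COX8 genes and the ATP5 genes. This gave 94 of the 11456 gene symbols in the table, 13 of them encoded by mitochondrial DNA and 81 by the nuclear chromosomes. Of the 81 nuclear genes, 75 encode subunits by current naming, 2 are readthrough genes and 4 are paralogs or partners of subunits (UQCRHL, COX7A2L, NDUFA4L2 and ATP5S). NDUFA4, despite its name, was counted with complex IV.

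HepG2 is an established human liver carcinoma line. For HepG2-hCAR it was infected with a lentivirus (pCW57-GFP-2A-MCS vector) in which doxycycline induces a full-length cDNA of human CAR, the constitutive androstane receptor encoded by NR1I3. Cells were selected with puromycin and grown up from single cells chosen for strong induction, so that both groups carry the provirus, and both grew in medium with penicillin and streptomycin. The 3 doxycycline libraries came from cells given 1 µg/ml of the drug for 72 h, and the 3 vehicle libraries from cells given vehicle control for 72 h. None of the 6 libraries had doxycycline without the inducible receptor, so the tetracycline antibiotic and the receptor cannot be told apart. Separate cultures are not stated for the replicates, and p-values then measure only the spread between these libraries, which may be technical.

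Oxidative phosphorylation is carried by 5 enzyme complexes of the inner mitochondrial membrane. Complexes I, III and IV pass electrons from NADH to oxygen and pump protons, complex II feeds in electrons from succinate, and complex V uses the proton gradient to make ATP. All but complex II are built from products of both genomes: mitochondrial DNA is transcribed into long polycistronic RNAs that are cut into single messages and translated on mitochondrial ribosomes, while nuclear subunits are translated in the cytosol and imported. Tetracyclines are known to slow translation on mitochondrial ribosomes as well as on bacterial ones. RNA, not protein or respiration, was measured here.

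Levels are in FPKM, which divides fragments by transcript length and by library size and so is a relative unit, and sequencing depth is unknown because no counts were used. FPKM above 0 was listed for 11441 to 11453 genes per library, and the values summed to 204298 to 209354. NR1I3 had 331, 317 and 316 FPKM with doxycycline, against 3.15, 3.01 and 3.57 FPKM with vehicle, a log2 fold change of 6.25 (limma, adjusted p = 2.4e-07). Of the 10 hepatocyte markers, 8 were called lower and 0 higher, against 13.6% and 15.2% of all genes tested. Their summed level was 1079 to 1098 FPKM with doxycycline and 2340 to 2517 FPKM with vehicle. Albumin, a defining marker, was low in both groups, at 0.373 FPKM with doxycycline and 1.87 with vehicle. Of 6 fibroblast and stellate markers only PDGFRB was in the table (1.40 to 1.47 FPKM with doxycycline, 0.798 to 0.966 with vehicle), of 5 endothelial markers none was, and 3 of 6 leukocyte markers summed to 263 to 277 FPKM with doxycycline and 544 to 586 FPKM with vehicle, almost all of it lysozyme. LYZ and CD68 were lower with doxycycline, while CD14, under the filter and not tested, had 1.85, 1.91 and 2.00 FPKM with doxycycline, against 0.0853, 0.0347 and 0.0533 FPKM with vehicle. PTPRC, CD3E and CD79A, the defining leukocyte genes, were not in the table. The part of these marker changes in the results below was not tested. All libraries came from the HepG2-hCAR line, and the markers are not read here as numbers of other cell types. In bulk RNA a change in some of the cells and a change in all of them cannot be told apart.

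Of the 13 mitochondrial genes, 6 were called higher with doxycycline and 0 lower (5 higher and 2 lower after quantile normalization), while most nuclear genes were not called and those called were mostly lower. Of the 92 members with a mean FPKM of at least 1, which were tested, 9 were called higher and 10 lower at an adjusted p below 0.05 (19, or 20.7%). Over all 10469 genes tested, 15.2% were called higher, 13.6% lower and 28.8% in either direction, and the difference between the members and the table was not tested. The groups did not overlap for 32 of the 92 members (34.8%), against 47.1% of all genes tested. Leaving out 1 library left 5 decreases without doxycycline replicate 2, 6 without doxycycline replicate 1 or 3 or vehicle replicate 3, 6 increases without vehicle replicate 2 or 3, and 12 calls in all without doxycycline replicate 2 or vehicle replicate 3.

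The mitochondrial genes lie close together, and some share bases, which shows how little sequence separates them. MT-ATP8 and MT-ATP6 are read in different frames from a shared stretch of 46 bases, and MT-ND4L and MT-ND4 share 7 bases. Both stretches are shown because each pair is carried by a bicistronic message, so that reads over the shared bases cannot be given to either gene. The sequences are from GENCODE 29, whose coordinates match the deposited ones for all 13 mitochondrial genes. In the MT-ATP8 and MT-ATP6 stretch (chrM:8527-8572, plus strand) the capitals mark the start codon of MT-ATP6 and the end of MT-ATP8, and in the MT-ND4L and MT-ND4 stretch (chrM:10749-10778, plus strand) they mark the shared bases.
MT-ATP8 and MT-ATP6: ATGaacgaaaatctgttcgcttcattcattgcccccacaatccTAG
MT-ND4L and MT-ND4: aacctactccaATGCTAAaactaatcgtcc

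All 13 mitochondrial genes had a log2 fold change above 0 (median 0.18, against 0.01 over all genes tested), except after quantile normalization, which left 6 above 0, 3 at 0.00 and 4 below. In every library 12 of the 13 were among the 13 most abundant genes of the table, so quantile normalization largely fixes their values by construction. The 6 called genes were MT-CYB, MT-ATP8, MT-ATP6, MT-CO2, MT-CO3 and MT-ND3, 46.2% of the 13, against 15.2% of all genes called higher. These genes share a genome and primary transcripts and are not replicates of each other. MT-ND6, the member encoded on the other strand, had 427 ± 23.9 FPKM with doxycycline and 405 ± 16.7 with vehicle (SD, n = 3 each; adjusted p = 0.320). Libraries were selected with oligo(dT), and a difference in message level and one in polyadenylation cannot be told apart.

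MT-CYB (ENSG00000198727, chrM:14747-15887), cytochrome b, the sole mitochondrial subunit of complex III, had the largest log2 fold change of the mitochondrial genes, except after quantile normalization, where MT-ND6 and MT-ND1 were above it. It had 2035, 1945 and 1913 FPKM with doxycycline, against 1526, 1388 and 1360 FPKM with vehicle. The groups were far apart relative to their spread, with a 1.38-fold ratio of means and a log2 fold change of 0.46 (SE 0.05, adjusted p = 0.00120). Its level relative to MT-ND4, an uncalled gene on the same strand, was 0.450, 0.431 and 0.459 with doxycycline and 0.346, 0.340 and 0.316 with vehicle.

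Both mitochondrial subunits of complex V were called higher. They are carried by a bicistronic message, so their calls are not independent of each other. Their listed levels nevertheless differed widely, and the reason was not tested. MT-ATP8, a small membrane subunit, had 5789, 6190 and 5097 FPKM with doxycycline, against 4538, 4438 and 4341 FPKM with vehicle (1.28-fold, log2 fold change 0.35, SE 0.07, adjusted p = 0.0130). MT-ATP6, subunit a, which forms the proton path beside the c ring, had 1260, 1186 and 1091 FPKM with doxycycline, against 951, 945 and 956 FPKM with vehicle (1.24-fold, log2 fold change 0.31, SE 0.05, adjusted p = 0.00691). The vehicle libraries were tight and the doxycycline libraries spread more, with replicate 3 the lowest for both genes. The MT-ATP6 call was lost after quantile normalization (adjusted p = 0.415, and 0.00229 to 0.415 over 16 alternatives).

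Among the 3 mitochondrial subunits of complex IV, the core of cytochrome c oxidase, 2 rose, except that quantile normalization put MT-CO3 slightly below 0 and MT-CO2 at 0.00, which ended both calls. MT-CO2, which accepts electrons from cytochrome c, had 4348, 4404 and 4017 FPKM with doxycycline, against 3893, 3553 and 3532 FPKM with vehicle (1.16-fold, log2 fold change 0.22, SE 0.05, adjusted p = 0.0260). MT-CO3 had 5684, 5696 and 5442 FPKM with doxycycline, against 5115, 4728 and 4724 FPKM with vehicle (log2 fold change 0.21, SE 0.04, adjusted p = 0.0104). MT-CO1, which holds the oxygen-reducing center, was not called, at 5116 ± 184 FPKM with doxycycline and 4856 ± 210 with vehicle (adjusted p = 0.225). The MT-CO2 call was lost without doxycycline replicate 1 or 2 or vehicle replicate 2 or 3 (adjusted p = 0.0800, 0.0798, 0.0812 and 0.0826, and 0.0128 to 1.00 over 16 alternatives, the highest after quantile normalization).

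Of the 7 mitochondrial subunits of complex I, which form the proton-pumping membrane arm, MT-ND3 alone was called (14.3%, against 15.2% higher over all genes). It had 1258, 1323 and 1230 FPKM with doxycycline, against 1181, 1042 and 1056 FPKM with vehicle (1.16-fold, log2 fold change 0.22, SE 0.06, adjusted p = 0.0315), and quantile normalization turned its sign (-0.05). This was the least stable mitochondrial call: it was lost without doxycycline replicate 1, 2 or 3 (adjusted p = 0.0755, 0.0917 and 0.0550) and without vehicle replicate 2 or 3 (0.0895 and 0.0953), with 0.00686 to 0.415 over 16 alternatives. MT-ND2 was next, at 2158, 2219 and 1970 FPKM with doxycycline and 1978, 1789 and 1852 FPKM with vehicle, groups that overlapped by a small margin (adjusted p = 0.0657, and 0.0289 without doxycycline replicate 3). MT-ND5 had 1648 ± 83.2 FPKM with doxycycline and 1529 ± 29.9 with vehicle (adjusted p = 0.101), and it was called higher without doxycycline replicate 3 (0.0157) and lower after quantile normalization (4.21e-06). MT-ND1, MT-ND4 and MT-ND4L had log2 fold changes of 0.06, 0.05 and 0.03 (adjusted p = 0.366, 0.483 and 0.619). After quantile normalization MT-ND1 (0.21, adjusted p = 9.64e-07), MT-ND4L (0.17, 1.84e-06) and MT-ND6 (0.36, 0.00147) were called higher with MT-CYB and MT-ATP8, and the other 4 of the 6 calls were lost. Because that setting largely fixes mitochondrial values by rank, its adjusted p-values for these genes say little about the spread between libraries.

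**Figure D1:**
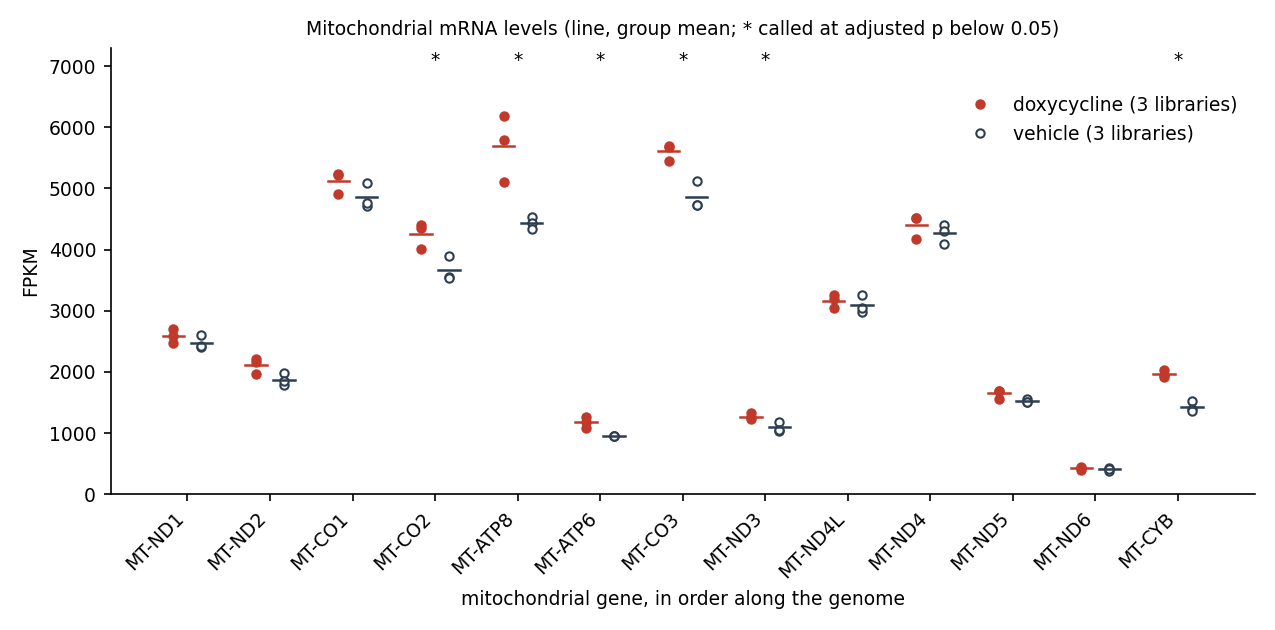
FPKM of the 13 mitochondrial genes in each library, doxycycline left of vehicle, with points for libraries and lines for group means. The 6 called genes, such as MT-CYB at 1913 to 2035 FPKM with doxycycline and 1360 to 1526 FPKM with vehicle, show no overlap, while genes such as MT-ND4 overlap; after quantile normalization MT-CO1, MT-CO3, MT-ND3 and MT-ND5 turn below 0.

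Summed over the 13 genes, mitochondrial messages came to 40138, 40782 and 37361 FPKM with doxycycline, against 36529, 33961 and 34286 FPKM with vehicle (39427 ± 1818 and 34926 ± 1398, SD, n = 3 each). The ratio of means was 1.13 (1.02 after quantile normalization), and the groups did not overlap, with doxycycline replicate 3 and vehicle replicate 1 nearest to each other. These genes took 19.3, 19.5 and 18.2% of all FPKM with doxycycline and 17.4, 16.6 and 16.7% with vehicle. The sum over the 81 nuclear genes was 2989, 2876 and 2993 FPKM with doxycycline, against 3165, 2995 and 3046 FPKM with vehicle. That is a ratio of 0.962, and the groups were separated only narrowly. FPKM is a relative unit, and the sum over all genes that are not mitochondrial was 0.981 times that with vehicle. The sum over all genes was 1.01 times that with vehicle. When the libraries were rescaled to the genes that are not mitochondrial, the ratio of the nuclear subunit sums was 0.981. The part of the larger mitochondrial share in the lower nuclear sum was not tested.

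The mitochondrial sum over the nuclear sum was 13.4, 14.2 and 12.5 with doxycycline and 11.5, 11.3 and 11.3 with vehicle. The shift differed in size by complex. For complex III it was 4.52 ± 0.158 with doxycycline and 3.09 ± 0.157 with vehicle, and for complex V it was 10.7 ± 1.34 and 7.80 ± 0.272. Complex IV had 21.2 ± 0.898 with doxycycline and 18.2 ± 0.554 with vehicle. In these 3 complexes the groups did not overlap. For complex I the ratio was 14.7 ± 0.819 with doxycycline and 13.6 ± 0.297 with vehicle, and the groups overlapped. The mitochondrial numerator is a single gene for complex III and a pair for complex V, so these ratios rest on MT-CYB, MT-ATP8 and MT-ATP6. The pair is carried by a bicistronic message. MT-ATP8 made up most of that numerator, with a mean of 5692 of 6871 FPKM with doxycycline and 4439 of 5390 with vehicle.

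**Figure D2:**
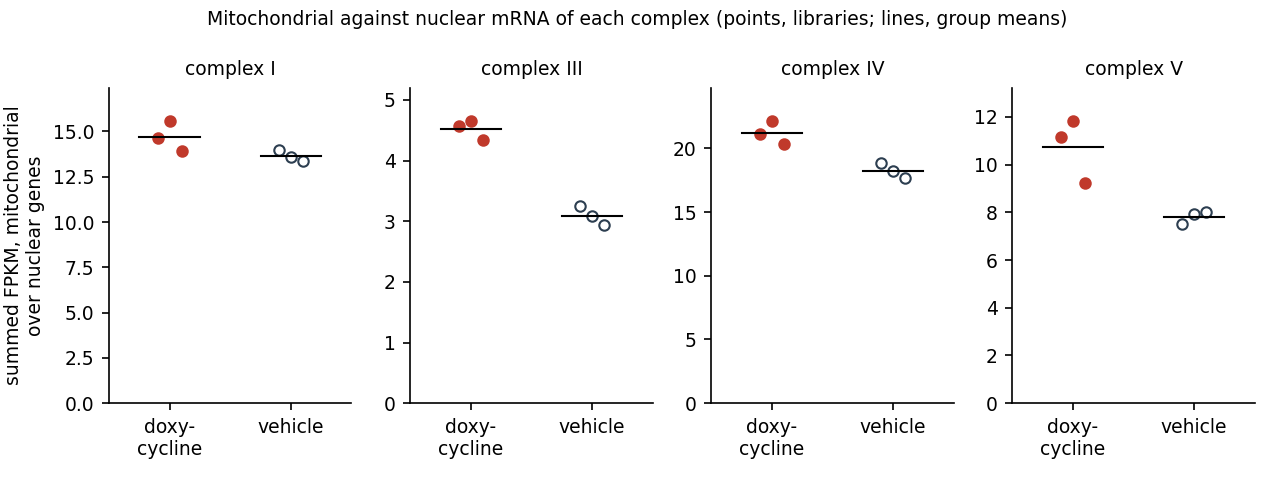
Summed FPKM of mitochondrial genes over summed FPKM of nuclear genes for complexes I, III, IV and V, doxycycline left of vehicle, with points for libraries and lines for group means. The groups are apart in complexes III (4.52 and 3.09), IV (21.2 and 18.2) and V (10.7 and 7.80) and overlap in complex I (14.7 and 13.6).

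Of the 79 nuclear genes tested, 3 were called higher, 10 lower and 66 neither. The 13 calls were 16.5% of them, against 28.8% of all genes tested, of which 15.2% were called higher and 13.6% lower. A log2 fold change below 0 was found for 54 of the 79 (median -0.06, against 0.01 over all genes tested). The groups did not overlap for 26 of the 79 (32.9%), against 47.1% of all genes tested. Doxycycline was higher in 5 of the 79 and lower in 21, against 24.8% and 22.3% of all genes tested. The share with doxycycline lower was thus near that of all genes tested, and the share with doxycycline higher was below it. Rescaling to genes that are not mitochondrial left 46 of the 79 below 0, with a median of -0.03. Among the 66 genes not called, log2 fold changes ran from -0.28 to 0.16, and for 43 the 95% interval of the log2 fold change lay within 0.25 of 0. Larger changes in the other genes of the 66 were not shown to be absent.

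**Figure D3:**
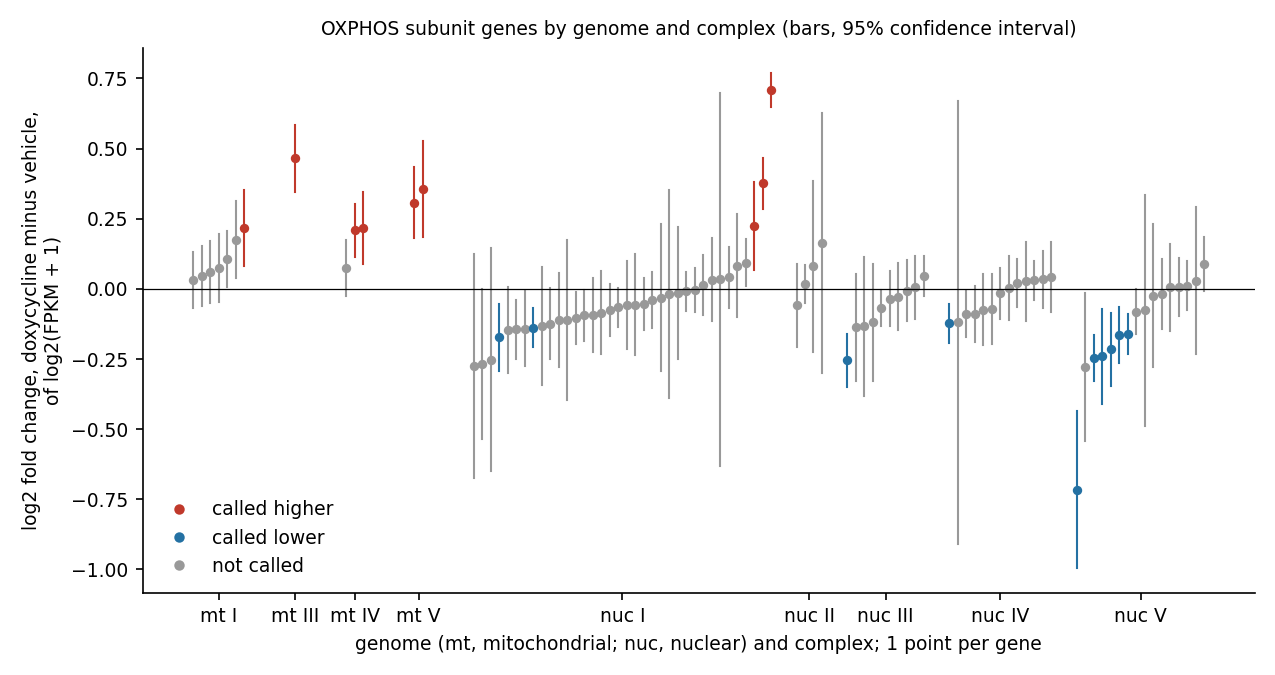
Log2 fold change (doxycycline minus vehicle, of log2(FPKM + 1)) of each tested gene by genome and complex, with 95% confidence intervals and with called genes in color. The 13 mitochondrial genes lie above 0 (quantile normalization moves 4 of them below), NDUFV2 stands highest at 0.71, ATP5G2 lowest at -0.72, and 6 of 16 nuclear complex V genes were called lower.

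Complex I had the largest nuclear increase and, among its 36 tested nuclear genes, 3 calls higher and 2 lower. Those calls were 13.9% of the 36, against 28.8% of all genes tested. NDUFV2 (ENSG00000178127, chromosome 18), a core subunit of the NADH-oxidizing matrix arm that carries an iron-sulfur cluster, had 43.8, 44.0 and 43.4 FPKM with doxycycline, against 26.1, 26.5 and 26.4 FPKM with vehicle. The libraries of each group almost coincided, the ratio of means was 1.66 and the log2 fold change 0.71 (SE 0.03, adjusted p = 2.15e-05). NDUFC2, an accessory subunit of the membrane arm, had 61.1, 60.0 and 63.3 FPKM with doxycycline, against 48.0, 45.2 and 48.2 FPKM with vehicle (1.30-fold, log2 fold change 0.38, SE 0.04, adjusted p = 8.87e-04). NDUFA13, an accessory subunit also known as GRIM-19, had 20.4, 17.2 and 17.9 FPKM with doxycycline, against 15.8, 15.8 and 15.3 FPKM with vehicle (1.18-fold, log2 fold change 0.22, SE 0.06, adjusted p = 0.0449). NDUFC2 shares 11562 bases on the same strand with the readthrough gene NDUFC2-KCTD14, which was under the filter at 0.567 ± 0.220 and 0.344 ± 0.233 FPKM. NDUFA13 shares bases on the same strand with YJEFN3 and AC011448.1, at 2.80 and 1.14 FPKM with doxycycline and 3.15 and 1.39 FPKM with vehicle, so its reads could be split.

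NDUFV2 stood apart from the other core subunits of the matrix arm. This arm has 7 core subunits, all nuclear, and NDUFV2 was the only one called. NDUFV1, which binds FMN and NADH next to NDUFV2, had 8.20, 8.89 and 8.08 FPKM with doxycycline and 9.89, 8.97 and 12.3 FPKM with vehicle, so that the vehicle libraries were spread (log2 fold change -0.27, SE 0.11). NDUFS1, the largest subunit, had 18.1 ± 0.868 FPKM with doxycycline and 17.5 ± 0.443 with vehicle. NDUFS3, NDUFS7 and NDUFS8 had log2 fold changes of -0.09, -0.12 and -0.02. For NDUFV1, NDUFS3 and NDUFS7 the groups did not overlap, with doxycycline lower, as for 22.3% of all genes tested. Their adjusted p-values in limma were 0.121, 0.115 and 0.134.

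The 29 nuclear accessory subunits of complex I, which surround the core, split into 2 called higher (NDUFC2 and NDUFA13), 2 called lower and 25 not called. The calls were 13.8% of the 29, against 28.8% of all genes tested. A log2 fold change below 0 was found for 22 of the 29. NDUFB10 had 33.0, 35.1 and 33.2 FPKM with doxycycline, against 40.8, 37.2 and 36.8 FPKM with vehicle (0.883-fold, log2 fold change -0.17, SE 0.05, adjusted p = 0.0449). NDUFB11 had 24.4, 24.5 and 24.4 FPKM with doxycycline, against 27.6, 26.9 and 26.4 FPKM with vehicle (0.905-fold, log2 fold change -0.14, SE 0.03, adjusted p = 0.0165). NDUFS5 was the most abundant nuclear message of complex I, at 174, 160 and 175 FPKM with doxycycline and 193, 182 and 189 FPKM with vehicle, and just missed the threshold (adjusted p = 0.0518). NDUFA1 (94.1 ± 1.95 and 98.5 ± 2.12 FPKM with doxycycline and vehicle) and NDUFB7 (71.0 ± 4.13 and 75.8 ± 3.46 FPKM) were not called. The NDUFA13 call was lost without doxycycline replicate 3 (adjusted p = 0.0794) or vehicle replicate 1, 2 or 3 (0.0980, 0.0991 and 0.119), with 0.0328 to 0.119 over 16 alternatives. The NDUFB10 call was lost without any 1 of the 6 libraries (adjusted p = 0.0571 to 0.121, and 0.0400 to 0.121 over 16 alternatives), and the NDUFB11 call without doxycycline replicate 3 (0.0508, and 0.0127 to 0.0513).

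Complex II, succinate dehydrogenase, is encoded by nuclear genes alone, and 0 of its 4 subunits were called, against 28.8% of all genes tested. SDHB, the iron-sulfur subunit, was the most abundant, at 54.0, 54.0 and 52.9 FPKM with doxycycline and 53.4, 53.9 and 51.7 FPKM with vehicle (log2 fold change 0.02, 95% interval -0.05 to 0.08). SDHA, the flavoprotein, had 17.9, 17.3 and 18.7 FPKM with doxycycline and 18.7, 19.0 and 13.6 FPKM with vehicle. SDHD, a membrane anchor, had 25.0, 22.2 and 25.2 FPKM with doxycycline and 25.3, 25.1 and 15.4 FPKM with vehicle. Vehicle replicate 3 was the low library for both, and without it the log2 fold changes of SDHA and SDHD were -0.07 and -0.06, in place of 0.08 and 0.16, and that of SDHB was -0.0006. SDHC, the other anchor, which lies 76.0 kb from NR1I3 on chromosome 1 (GRCh37), had 9.86 ± 0.268 FPKM with doxycycline and 10.3 ± 0.790 with vehicle.

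Of the 10 nuclear genes of complex III, UQCR10 alone was called (10.0%, against 28.8% of all genes tested). UQCR10, a small membrane subunit, had 95.7, 91.3 and 94.9 FPKM with doxycycline, against 118, 108 and 111 FPKM with vehicle. The groups were well apart, with a ratio of 0.836 and a log2 fold change of -0.25 (SE 0.04, adjusted p = 0.00492), opposite in sign to MT-CYB of the same complex. The catalytic nuclear subunits were not called: UQCRFS1, the Rieske iron-sulfur protein, had 30.2 ± 0.584 FPKM with doxycycline and 29.2 ± 0.420 with vehicle, and CYC1, cytochrome c1, had 33.8 ± 4.28 and 36.6 ± 0.501. UQCRH, the hinge protein, was the most abundant nuclear message of the complex at 119 ± 5.49 FPKM with doxycycline and 120 ± 4.40 with vehicle. The core proteins UQCRC1 and UQCRC2 had log2 fold changes of -0.14 and -0.07 (adjusted p = 0.246 and 0.108). UQCRHL, a near-identical copy of UQCRH, had 1.28 ± 0.215 FPKM with doxycycline and 1.50 ± 0.229 with vehicle, and reads of the pair could be split.

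Complex IV had 1 call among 13 nuclear genes (7.69%, against 28.8% of all genes tested). COX8A, a small subunit and the most abundant nuclear message among all members, had 188, 185 and 187 FPKM with doxycycline, against 209, 197 and 204 FPKM with vehicle (0.917-fold, log2 fold change -0.12, SE 0.03, adjusted p = 0.0217). Its call was lost without doxycycline replicate 1, 2 or 3 (adjusted p = 0.0545, 0.0687 and 0.0602) or vehicle replicate 3 (0.0701), with 0.0169 to 0.354 over 16 alternatives. COX6B1 (96.2 ± 2.54 and 94.2 ± 1.52 FPKM with doxycycline and vehicle) and COX6A1 (86.5 ± 4.37 and 91.2 ± 4.60 FPKM) came next in level and were not called.

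For several subunits of complex IV the human genome holds paralogs with a tissue pattern of their own. COX4I1, COX6A1, COX6B1, COX7A2 and COX8A were in the table, and COX4I2, COX6A2, COX6B2, COX7A1 and COX8C were not. COX4I1 had 22.6 ± 1.38 FPKM with doxycycline and 21.9 ± 0.645 with vehicle, COX7A2 33.3 ± 2.71 and 32.6 ± 0.182, and COX7A2L, a supercomplex assembly factor, 18.9 ± 0.431 and 18.6 ± 0.454. NDUFA4, a complex IV subunit, had 32.4 ± 1.01 FPKM with doxycycline and 34.5 ± 1.38 with vehicle (adjusted p = 0.162). Its paralog NDUFA4L2, known as a hypoxia-inducible gene, had 6.99, 5.35 and 6.73 FPKM with doxycycline and 4.58, 5.76 and 12.4 FPKM with vehicle. Vehicle replicate 3 sets the sign for NDUFA4L2: its log2 fold change was -0.12 over all libraries and 0.25 without that library.

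Complex V, ATP synthase, had the largest share of nuclear calls, 6 of 16 tested (37.5%), all lower. Over all genes tested, 13.6% were called lower and 28.8% in either direction. The 6 covered the c ring (ATP5G1, ATP5G2 and ATP5G3), the central stalk (ATP5C1), the peripheral stalk (ATP5F1) and the membrane part (ATP5I). Leaving out doxycycline replicate 1 or 2 left 3 of the 6. Both mitochondrial genes of the complex, MT-ATP6 and MT-ATP8, were called the other way.

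The c ring, the rotor that turns as protons pass, is made of a single mature protein encoded by 3 genes that differ in their import sequences. ATP5G2 (current symbol ATP5MC2, ENSG00000135390, chromosome 12) had 9.43, 9.21 and 9.01 FPKM with doxycycline, against 13.0, 18.2 and 16.5 FPKM with vehicle. The doxycycline libraries were tight and the vehicle libraries spread, and the ratio of 0.579 was the lowest of all tested members (log2 fold change -0.72, SE 0.11, adjusted p = 0.00575). ATP5G1 (ATP5MC1) had 28.5, 26.0 and 29.1 FPKM with doxycycline, against 33.9, 31.8 and 31.7 FPKM with vehicle (0.857-fold, log2 fold change -0.22, SE 0.05, adjusted p = 0.0280). ATP5G3 (ATP5MC3) had 21.8, 20.6 and 21.7 FPKM with doxycycline, against 25.0, 23.7 and 23.4 FPKM with vehicle (0.888-fold, log2 fold change -0.16, SE 0.04, adjusted p = 0.0282).

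Together the 3 c ring genes summed to 59.7, 55.8 and 59.7 FPKM with doxycycline, against 72.0, 73.7 and 71.6 FPKM with vehicle, a ratio of 0.806 with no overlap. ATP5G2 supplied 15.8, 16.5 and 15.1% of that sum with doxycycline and 18.1, 24.7 and 23.0% with vehicle, so vehicle replicate 1 was nearer to the doxycycline libraries than the other two were. The ATP5G1 call was lost without doxycycline replicate 1 or 2 (adjusted p = 0.0555 and 0.0509) or vehicle replicate 1, 2 or 3 (0.0789, 0.0599 and 0.0576), with 0.0250 to 0.0789 over 16 alternatives. The ATP5G3 call was lost without doxycycline replicate 1, 2 or 3 (adjusted p = 0.0547, 0.0764 and 0.0604) or vehicle replicate 1 or 2 (0.0707 and 0.0622), with 0.0242 to 0.0764 over 16 alternatives. The ATP5G2 call held in all 16.

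Of the 5 genes of the F1 head and central stalk, where ATP is made, ATP5C1 was called. ATP5C1 (ATP5F1C), the rotating gamma subunit, had 92.9, 95.7 and 96.1 FPKM with doxycycline, against 109, 104 and 105 FPKM with vehicle (0.894-fold, log2 fold change -0.16, SE 0.03, adjusted p = 0.00928). ATP5B (ATP5F1B), the catalytic beta subunit and the most abundant of the complex's nuclear messages, had 144, 147 and 165 FPKM with doxycycline and 178, 152 and 136 FPKM with vehicle, groups that overlapped widely (adjusted p = 0.889). ATP5D (ATP5F1D), the delta subunit of the stalk, had 6.98, 6.93 and 9.28 FPKM with doxycycline and 9.13, 9.82 and 9.61 FPKM with vehicle. Doxycycline replicate 3 lay with the vehicle libraries for ATP5D, which was not called (adjusted p = 0.107) and was called lower without that library (0.00583, and 0.00583 to 0.249 over 16 alternatives). ATP5A1, the alpha subunit, and ATP5E, the epsilon subunit, had log2 fold changes of 0.03 and 0.09 and were not called.

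In the peripheral stalk, which holds the head still, ATP5F1 (ATP5PB), subunit b, had 39.3, 38.8 and 41.6 FPKM with doxycycline, against 47.5, 47.6 and 47.4 FPKM with vehicle (0.840-fold, log2 fold change -0.25, SE 0.03, adjusted p = 0.00324). Its partners ATP5J, ATP5O and ATP5H were not called (log2 fold changes of -0.02, -0.08 and 0.01). In the membrane part ATP5I (ATP5ME), subunit e, which helps ATP synthase form dimers, had 57.4, 54.0 and 57.8 FPKM with doxycycline, against 74.2, 62.7 and 64.0 FPKM with vehicle (0.843-fold, log2 fold change -0.24, SE 0.07, adjusted p = 0.0473). Vehicle replicate 1 was the high library for ATP5I. The ATP5I call was lost without doxycycline replicate 1, 2 or 3 (adjusted p = 0.0954, 0.128 and 0.0887) or vehicle replicate 3 (0.0717). It was also lost after rescaling to genes that are not mitochondrial (0.0555) and in limma without the trend (0.06), with 0.0315 to 0.128 over 16 alternatives. ATP5J2 and ATP5L, subunits f and g, had log2 fold changes of -0.08 and 0.01, and the readthrough gene ATP5J2-PTCD1 was under the filter at 0.883 ± 0.140 FPKM with doxycycline and 0.762 ± 0.0279 with vehicle. ATP5S, a partner rather than a subunit, had 1.46 ± 0.0434 FPKM with doxycycline and 1.45 ± 0.164 with vehicle.

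**Figure D4:**
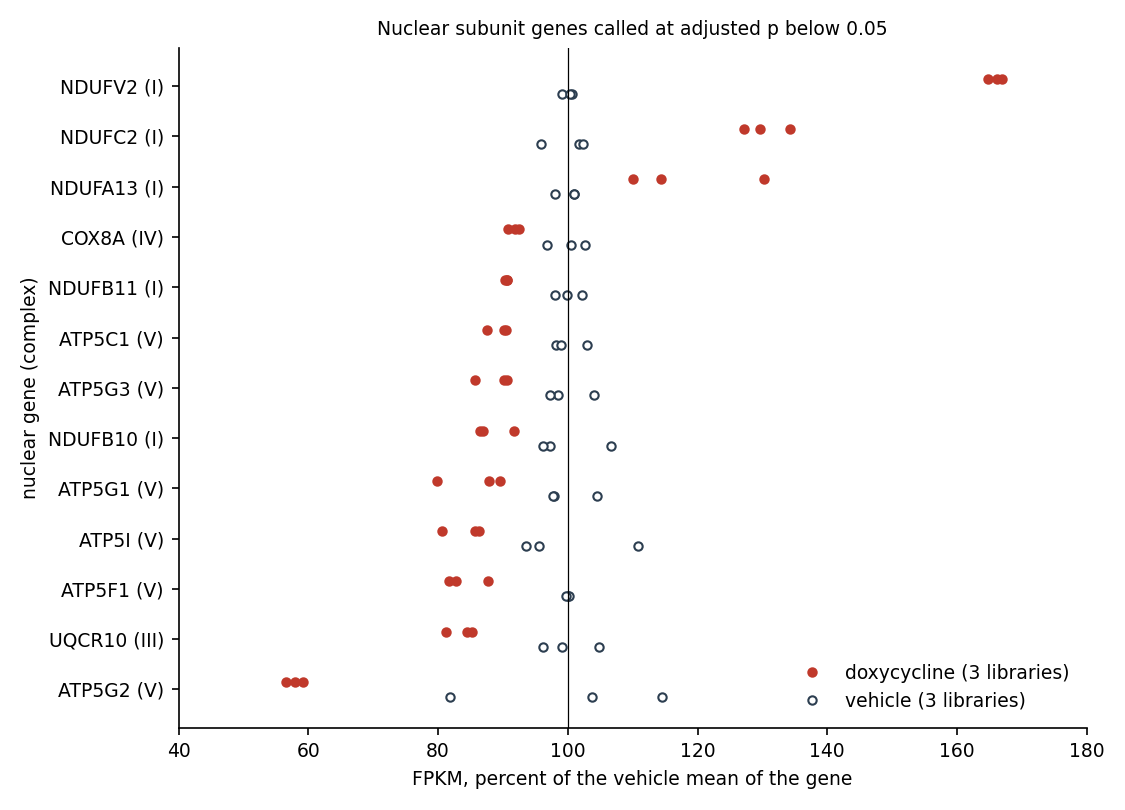
FPKM of the 13 called nuclear genes in each library, as a percent of the gene's vehicle mean (horizontal axis, vertical line at that mean), with filled points for doxycycline above open points for vehicle. NDUFV2 (43.4 to 44.0 FPKM with doxycycline and 26.1 to 26.5 with vehicle), NDUFC2 and NDUFA13 lie right of the line, and the other 10, from COX8A to ATP5G2 (9.01 to 9.43 FPKM with doxycycline and 13.0 to 18.2 with vehicle), lie left of it without overlap between the groups.

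Spread within a group was small for most members, with a median range of 0.0985 on the log2 scale among the doxycycline libraries and 0.115 among the vehicle libraries. In 6 of the 92 tested members a group ranged over more than 0.5, namely NDUFA4L2, NDUFA6, SDHD, NDUFA5, NDUFS4 and NDUFA12, of which NDUFA6, NDUFA5, NDUFS4 and NDUFA12 are named for that spread after their values were seen. NDUFA6 had 47.6, 42.6 and 29.5 FPKM with doxycycline and 46.4, 26.1 and 45.9 FPKM with vehicle, a low library in each group. None of the 6 was called.

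Promoters of nuclear members were compared for letters that match the binding motifs of NRF1, ETS factors (which include GABPA) and YY1, factors known to act on respiratory chain genes, and for the DR4 element that CAR binds. RefSeq windows on GRCh38.p14, from 250 bases before to 50 after each start, were found for 63 of the 81 nuclear members, and both strands were read. The NRF1 motif (GCGC, any base, T, then GCGC) was in 15 of the 63 (23.8%), against 6.98% of the 27305 genes with a window, the ETS motif CCGGAAG in 20 (31.7%), against 12.2%, and the YY1 motif AANATGGCG in 17 (27.0%), against 3.85%. The DR4 letters (AGGTCA or AGTTCA, any 4 bases, then AGGTCA or AGTTCA) were in 0 of the 63 and in 0.0439% of all, which says only that these letters were not in these windows. Of the 9 matched members called lower, 3 held the NRF1 motif (ATP5C1, ATP5I and UQCR10), 2 the ETS motif (ATP5I and COX8A) and 1 the YY1 motif (UQCR10). Of the 2 matched members called higher, NDUFV2 held the YY1 motif and NDUFA13 the ETS motif. Among the 52 matched members not called, 12 held the NRF1, 17 the ETS and 15 the YY1 motif. A match is a description of the letters and not a bound site.

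The promoters of NDUFV2, the gene with the largest increase, and of UQCR10 and ATP5C1 are shown 5′ to 3′ on the strand of the gene with the matches in capitals. UQCR10 and ATP5C1 were chosen as genes lower in all 16 alternatives that hold a match, and ATP5F1 and ATP5G2, also lower in all 16, hold none. In NDUFV2 (chr18:9102449-9102748, plus strand) the capitals are the YY1 match, on the reverse strand. In UQCR10 (chr22:29767119-29767418, plus strand) they are the NRF1 match at the start, on the reverse strand, and the YY1 match after it, and in ATP5C1 (chr10:7787927-7788226, plus strand) the NRF1 match. No match overlapped another.
NDUFV2: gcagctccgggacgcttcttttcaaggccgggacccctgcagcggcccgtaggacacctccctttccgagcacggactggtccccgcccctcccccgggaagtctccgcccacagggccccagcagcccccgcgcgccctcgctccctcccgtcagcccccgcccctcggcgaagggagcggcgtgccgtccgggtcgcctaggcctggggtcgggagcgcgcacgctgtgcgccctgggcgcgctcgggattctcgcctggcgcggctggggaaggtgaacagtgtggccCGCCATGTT
UQCR10: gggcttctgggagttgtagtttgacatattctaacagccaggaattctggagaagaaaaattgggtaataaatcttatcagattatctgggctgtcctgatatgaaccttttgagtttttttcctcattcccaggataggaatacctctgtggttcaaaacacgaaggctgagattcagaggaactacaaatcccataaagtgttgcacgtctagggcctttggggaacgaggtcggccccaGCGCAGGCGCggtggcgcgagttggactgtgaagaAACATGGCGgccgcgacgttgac
ATP5C1: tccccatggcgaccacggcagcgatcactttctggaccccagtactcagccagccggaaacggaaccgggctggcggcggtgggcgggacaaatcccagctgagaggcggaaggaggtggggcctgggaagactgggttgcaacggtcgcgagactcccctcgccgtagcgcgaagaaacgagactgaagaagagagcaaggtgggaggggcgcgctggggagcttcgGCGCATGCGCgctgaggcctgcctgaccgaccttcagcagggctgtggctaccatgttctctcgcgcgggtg

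Of 50 assembly factors of the complexes, 5 were called higher and 3 lower (16%, against 28.8% of all genes tested), among them PET117, a factor for complex IV (18.2 ± 0.319 FPKM with doxycycline and 15.1 ± 0.951 with vehicle, adjusted p = 0.0121), and UQCC3, a factor for complex III (4.60 ± 0.195 and 5.85 ± 0.292, adjusted p = 0.00966). Of 7 subunits and partners outside the name pattern, 0 were called higher and 2 lower (28.6%), ATPIF1, the ATP synthase inhibitor (22.7 ± 0.486 and 27.3 ± 1.73 FPKM, adjusted p = 0.0137), and NDUFAB1, the mitochondrial acyl carrier protein (adjusted p = 0.0290). The NDUFAB1 call was lost without doxycycline replicate 1 or 3 (0.0818 and 0.0859) or vehicle replicate 1 or 2 (0.0760 and 0.0852), with 0.0196 to 0.0859 over 16 alternatives. Of 12 genes of coenzyme Q synthesis, 3 were called higher and 3 lower (50%), including COQ10A, a coenzyme Q binding protein (2.63 ± 0.347 and 1.17 ± 0.130 FPKM, adjusted p = 0.00176), and COQ8A, an atypical kinase of the pathway (7.72 ± 0.515 and 10.6 ± 0.276 FPKM, adjusted p = 0.00282). Of 14 genes of the tricarboxylic acid cycle, 0 were called higher and 3 lower (21.4%), led by IDH2, the mitochondrial NADP-linked isocitrate dehydrogenase (28.7 ± 1.49 and 38.8 ± 1.56 FPKM, adjusted p = 0.00172).

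Of 21 genes of mitochondrial RNA processing and stability, 4 were called higher and 2 lower, a share of 28.6% that is near the 28.8% of all genes tested. LRPPRC, which binds and stabilizes mitochondrial messages, had 53.7, 54.7 and 54.9 FPKM with doxycycline, against 61.5, 63.1 and 61.4 FPKM with vehicle (log2 fold change -0.18, SE 0.03, adjusted p = 0.00338), and FASTKD5, which takes part in maturing messages without flanking tRNAs, had 26.6 ± 0.586 and 23.3 ± 0.192 FPKM (adjusted p = 0.00611). SLIRP, the partner of LRPPRC, was lower by a log2 difference of -0.30 (adjusted p = 0.0469), a call lost without doxycycline replicate 1 or 3 (0.0543 and 0.0640) or vehicle replicate 1, 2 or 3 (0.126, 0.0764 and 0.118), with 0.0315 to 0.126 over 16 alternatives. Of 17 genes of mitochondrial DNA replication and transcription, 1 was called higher (TK2) and 1 lower (TFAM), 11.8% of the list. TK2, the mitochondrial thymidine kinase, had 2.18 ± 0.107 FPKM with doxycycline and 1.57 ± 0.198 with vehicle (adjusted p = 0.0226), a call lost without doxycycline replicate 1 or 2 (0.0703 and 0.0678) or vehicle replicate 1 or 3 (0.0541 and 0.0648), with 0.0186 to 0.0703 over 15 alternatives. TFAM, which packages mitochondrial DNA and starts its transcription, was at 28.1 ± 1.17 FPKM with doxycycline and 31.3 ± 1.01 with vehicle (adjusted p = 0.0454), a call lost without doxycycline replicate 1 or 3 (0.109 and 0.0971) or vehicle replicate 1, 2 or 3 (0.0858, 0.121 and 0.0752), with 0.0330 to 0.121 over 16 alternatives.

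Of 12 tested regulators of nuclear OXPHOS genes, 1 was called higher and 1 lower (16.7%). NRIP1, a corepressor known to restrain oxidative genes, had 21.6, 22.0 and 21.3 FPKM with doxycycline, against 15.2, 15.9 and 14.7 FPKM with vehicle (log2 fold change 0.48, SE 0.04, adjusted p = 4.33e-04). PPARGC1A, a coactivator of mitochondrial biogenesis, had 4.98 ± 0.227 FPKM with doxycycline and 5.99 ± 0.431 with vehicle (adjusted p = 0.0398), a call lost without any 1 of the 6 libraries (0.0532 to 0.110, and 0.0346 to 0.110 over 16 alternatives). Of 16 genes of mitochondrial stress and quality control, 2 were called higher and 2 lower (25.0%). PINK1, the kinase that marks damaged mitochondria, had 14.4 ± 0.343 FPKM with doxycycline and 10.7 ± 0.444 with vehicle (adjusted p = 0.00126). HSPD1, the mitochondrial chaperonin, had 341 ± 7.43 FPKM with doxycycline and 384 ± 11.5 with vehicle (adjusted p = 0.00848). After quantile normalization HSPD1 was called higher instead (log2 fold change 0.10, limma adjusted p = 5.01e-04).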

How the data were processed

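Messenger RNA of 6 libraries, 3 doxycycline and 3 vehicle, was sequenced after oligo(dT) selection and strand-specific dUTP library preparation, per the labels. The deposited FPKM values are the authors' own, in a column for each library. FastQC, cutadapt, HISAT2, StringTie and the build GRCh37 are credited to the submitters' processing notes, and versions and the annotation release are not given in the sources used here. Of 11461 entries, 5 with a repeated symbol and the lower mean were dropped. The smallest value of the larger group mean was 0.500 FPKM, so the table holds few weakly expressed genes.

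The 10469 genes averaging 1 FPKM or more were tested on log2(FPKM + 1) with limma 3.58.1 in R 4.3.3 (lmFit, eBayes with trend), two-sided, group as the only term, doxycycline minus vehicle. P-values were Benjamini-Hochberg adjusted over all genes tested. A log2 fold change on this scale understates the change of weakly expressed genes. "Fold" is the ratio of mean FPKM, and errors of means are SD with 3 libraries per group. Sums were given without a test. The procedure was tested on simulated data. Promoters were read from RefSeq tables by symbol, and tables and figures were made with python 3.11.15, numpy 2.4.6, pandas 2.3.3 and matplotlib 3.10.9.

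The members and gene lists were chosen with earlier results of these data known. The values of 1 member are not reported here on their own. The rule for named genes took NR1I3, every mitochondrial gene, every called member, in each complex the 3 most abundant nuclear members and the 2 with the largest absolute log2 fold change, the listed paralogs, and up to 4 called genes of each list around the complexes. Of those last genes, the ones that held their calls in all alternatives are described, with some others for their role, and other members were named to complete a role. The 16 alternatives were pseudocounts of 0.1 and 0.5, no filter, a minimum mean of 5, median-ratio scaling, quantile normalization, rescaling to genes that are not mitochondrial, limma without trend or with robust moderation, a term for the replicate number (replicate block), and leaving out each library.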

Additional observations from a re-analysis of the deposited data

How the results depend on the processing

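Of the 19 calls, 8 kept their direction and their call under all 16 alternatives (ATP5C1, ATP5F1, ATP5G2, MT-ATP8, MT-CYB, NDUFC2, NDUFV2 and UQCR10), and with MT-ATP6 and MT-CO3 10 did so whichever library was left out. Leaving out 1 library gave 5 to 8 subunits called lower, 4 to 7 mitochondrial genes called, 3 to 5 nuclear complex V genes called lower, 12 to 16 calls in either direction, and 2309 to 2376 genes called over the table in place of 3012. Fewer samples are tested there by construction. The ratio of the mitochondrial sums was 1.02 after quantile normalization and 1.11 to 1.16 under the other alternatives that change it. Quantile normalization turned the log2 fold changes of MT-CO1 (-0.13, adjusted p = 9.94e-04), MT-CO3 (-0.0156), MT-ND3 (-0.0503), MT-ND5 (-0.19, adjusted p = 4.21e-06) and HSPD1 (0.10, adjusted p = 5.01e-04). Mitochondrial values are largely fixed by rank there, so their adjusted p-values and the held calls of MT-CYB and MT-ATP8 say little.

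Other signs turned in members that were not called. ATP5B was at 0.0049 after quantile normalization, 0.0040 after rescaling and -0.1137 to 0.0774 with a library left out. UQCRH was at 0.0128, 0.0209 and -0.0288 to 0.0316 under the same alternatives. With a library left out, COX7A2 ran from -0.0376 to 0.0647, and, with vehicle replicate 3 the library that turned the sign, NDUFA4L2 from -0.38 to 0.25, SDHA from -0.0652 to 0.16, SDHB from -0.0006 to 0.0286 and SDHD from -0.0624 to 0.28. The causes were not tested. Rescaling to genes that are not mitochondrial gave 12 members higher and 8 lower. It ended the lower calls of ATP5I (adjusted p = 0.0555) and NDUFB10 (0.0595), and outside the members those of PPARGC1A (0.0614), SLIRP (0.0597) and TFAM (0.0881). Limma without the trend ended the member calls of ATP5I (0.06), COX8A (0.0618), NDUFA13 (0.053) and NDUFB10 (0.0621). The lists of lost calls above cover libraries left out, unless another alternative is named. Same-numbered libraries showed little common deviation (correlations of 0.0150, -0.0321 and 0.0917), and only libraries of number 3 correlated best with their own number. With 3 libraries per group this cannot exclude that the numbers pair them. With the replicate block 2343 genes were called, and of the members 7 higher and 10 lower, with 15 of the 19 calls shared, those of MT-ND3, NDUFA13, NDUFB10 and NDUFB11 lost, and those of UQCRC1 and NDUFS5 gained. Depth is unknown, and 3 libraries per group limit what could be called.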

Other observations

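HIGD1A, a hypoxia-inducible partner of complexes III and IV that the name pattern does not take, is described here because its values stood out after they were seen. It had 80.7, 48.8 and 87.8 FPKM with doxycycline, against 44.8, 44.8 and 44.8 FPKM with vehicle. The vehicle libraries coincided, doxycycline replicate 2 lay near them, and the gene was not called (log2 fold change 0.64, SE 0.21, adjusted p = 0.0714).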
